A study of Mus musculus with 4 samples.

Results

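Otp and 3 genes set beside it, Sim1, Calcr and Cbln4, were followed across the cells of the mouse embryonic arcuate nucleus (ARC), the ventral hypothalamic nucleus that holds neurons for feeding, growth and reproduction. The 4 genes were taken by name as rows of the raw table of counts, 4 of 27998 rows and 4 of the 19170 rows with a count. Each was measured by the share of cells with at least 1 unique molecular identifier (UMI, 1 captured transcript) and by its pooled level in CPM, the gene's UMIs per 1000000 UMIs of the same cells. Neurons were cells with at least 2 UMIs of Stmn2, a microtubule regulator of growing neurons, and they were graded by their UMIs of Otp and of the peptide genes Npy, Agrp and Sst.

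The cells came from C57BL/6 embryos that carried the Pomc-eGfp reporter, a transgene that makes Pomc-expressing cells fluoresce and so guided the dissection. The labels give the age as E15 and the titles as E15.5. The study's methods state that tissue of 6 embryos was pooled and dissociated with papain, with no sort mentioned, and the 4 samples are sequencing runs of that single library. There was therefore 1 library and 1 group, with no replicate and no control group, and no test of any difference was possible. Shares are given with exact (Clopper-Pearson) 95% binomial intervals and levels with exact 95% Poisson intervals, which cover counting error only. Where a count was 0, the share it allows is given as 3 counts of the total, a rule of its own that gives a lower limit than the upper bound of the exact interval.

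After filtering, 6351 of 6465 barcodes with 24430646 UMIs were kept, with a median of 3338 UMIs per cell and a range of 1748 to 16836. Of these, 4006 cells (63.1%) were neurons of any region, and the others included progenitors, pituitary cells and connective tissue. Nkx2-1, a factor of the hypothalamic field that holds the arcuate nucleus, had a UMI in 1272 of the neurons. Markers of neighbouring regions were also found in neurons, Pou4f1 in 928, Kitl in 488, Robo3 in 394 and Fezf1 in 369.

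Otp (orthopedia homeobox) encodes a homeodomain transcription factor that neuroendocrine neurons of the hypothalamus need for their formation, and in the ARC it marks the Agrp lineage, whose neurons drive feeding. Sim1 encodes a bHLH-PAS factor that acts with its dimer partner Arnt2, alongside Otp and upstream of Pou3f2, in neurons that make vasopressin (Avp), oxytocin (Oxt), Crh and Trh. Calcr encodes the calcitonin receptor, a G protein-coupled receptor that binds calcitonin and, together with Ramp proteins, amylin. Cbln4 encodes a secreted protein of the C1q family that organizes synapses through neurexins and also binds Dcc and Neo1. Calcr and Cbln4 were picked by the study from these same cells as genes of Otp neurons. Their higher levels with Otp here are therefore not independent evidence of that link. In tissue sections of the ARC, the study also reported RNA of Calcr, Cbln4, Cited1 and Peg10 in cells stained for Otp protein. Those sections were not examined here.

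In the mm10 genome (GRCm38; GENCODE M21 annotation) the 4 genes are protein coding and lie on 4 chromosomes. Otp spans chr13:94875602-94885130 on the plus strand, Sim1 chr10:50894754-50989152 on the plus strand, Calcr chr6:3685680-3764714 on the minus strand and Cbln4 chr2:172036233-172043466 on the minus strand. No other gene of the table overlaps any of them. The bases just upstream of a start of Otp, Calcr and Cbln4 are shown because the levels of these genes moved together across neurons. They come from RefSeq promoter windows of GRCm38.p6, written 5′ to 3′ on the gene's strand, with bases of annotated exons left out, and they lie at chr13:94875386-94875601, chr6:3763631-3763873, chr6:3764715-3764963 and chr2:172043467-172043716, in that order. The inner start of Calcr lies within the annotated span of the gene.
Otp: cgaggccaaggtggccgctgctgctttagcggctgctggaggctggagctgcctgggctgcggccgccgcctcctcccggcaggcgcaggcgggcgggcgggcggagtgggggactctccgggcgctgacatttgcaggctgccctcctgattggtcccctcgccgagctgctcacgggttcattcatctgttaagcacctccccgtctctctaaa
Calcr, inner start: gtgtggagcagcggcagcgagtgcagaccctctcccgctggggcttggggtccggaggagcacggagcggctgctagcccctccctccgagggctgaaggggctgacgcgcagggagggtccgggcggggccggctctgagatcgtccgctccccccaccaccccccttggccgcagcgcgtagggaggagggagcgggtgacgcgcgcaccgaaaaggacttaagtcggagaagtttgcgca
Calcr, outer start: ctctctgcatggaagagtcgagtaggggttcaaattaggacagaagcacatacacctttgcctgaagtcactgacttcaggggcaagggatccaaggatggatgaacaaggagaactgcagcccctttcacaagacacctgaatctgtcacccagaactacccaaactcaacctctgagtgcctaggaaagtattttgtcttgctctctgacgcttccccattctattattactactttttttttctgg
Cbln4: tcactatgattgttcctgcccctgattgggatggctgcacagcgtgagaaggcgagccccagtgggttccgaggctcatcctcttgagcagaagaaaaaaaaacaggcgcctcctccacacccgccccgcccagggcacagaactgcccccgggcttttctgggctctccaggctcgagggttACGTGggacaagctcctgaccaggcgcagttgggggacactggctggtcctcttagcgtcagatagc
Capitals mark ACGTG, the core bound by bHLH-PAS dimers, which was searched on both strands together with TAATTA, a core common to homeodomain factors. Of 32851 promoter windows of 300 bases, 19.6% held ACGTG or its complement CACGT and 5.29% held TAATTA. The window of Cbln4 held 1 ACGTG, and the windows of Otp and Calcr held neither set of letters. Such a match is a description of the letters only.

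Otp was detected in 750 of 4006 neurons (18.7%, 17.5 to 19.97) at 170 CPM. Calcr was detected in 287 neurons (7.16%, 6.38 to 8.01) and Cbln4 in 351 (8.76%, 7.90 to 9.68). Sim1 was the rarest, with 10 neurons (0.250%, 0.120 to 0.459) and 18 UMIs in all kept cells. The highest count in 1 neuron was 21 UMIs for Otp, 11 for Calcr, 6 for Cbln4 and 3 for Sim1. A neuron at 0 for Calcr or Cbln4 may therefore still have expressed the gene below this depth.

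The background from free RNA was read in 201 vascular and connective cells (median 3851 UMIs, against 3408.5 in neurons), which should lack all 4 genes. There Otp was found in 2.99% (1.10 to 6.38) and Calcr in 1.49% (0.309 to 4.30) of cells. Cbln4 and Sim1 were found in 0 of 201 cells, which allows a share of up to 1.49%. Otp was thus far above the background in neurons, and Calcr and Cbln4 were above it over all neurons. The share of Sim1 in all neurons lay under what these 201 cells can exclude. Of the peptide genes, Npy was found in 1.99% (0.545 to 5.02), Agrp in 0.498% (0.0126 to 2.74) and Sst in 2.99% (1.10 to 6.38) of the 201. In neurons with 0 Otp UMIs these genes had shares of 2.52%, 0.553% and 2.03%, within those intervals.

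Outside neurons, Otp was near the background in progenitors (3.92%) and in intermediate precursors (2.21%), which hold Hes6, a gene of cells leaving the cycle. It was found in 22.1% of the 852 cells that met no gate and had under 2 Stmn2 UMIs (median 2559 UMIs), beside 18.7% of neurons. Calcr was in 4.58% and Cbln4 in 4.23% of those 852 cells. Cbln4 was also found in 37 of 613 pituitary cells (6.04%, 4.29 to 8.22; median 4241 UMIs), 12 of them with 2 UMIs or more, which was above its share in vascular cells. Calcr was at 2.28% in those pituitary cells, and 2 of them held 1 Sim1 UMI each. The gates outside neurons overlap, so their cells do not add up.

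**Figure D1:**
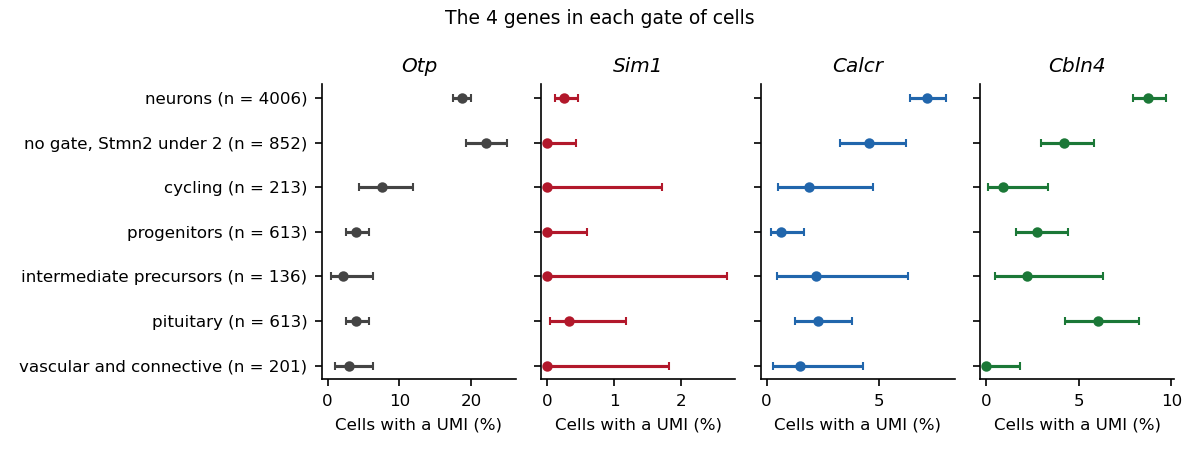
Share of cells with at least 1 UMI (x axis, %) of Otp, Sim1, Calcr and Cbln4 in each gate of cells (y axis, with the number of cells). Points are shares and bars exact 95% binomial intervals; Otp was highest in neurons (18.7%) and in the ungated cells with Stmn2 under 2 (22.1%), and Calcr and Cbln4 were highest in neurons.

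Neurons fell into 3256 with 0 Otp UMIs, 198 with 1, 257 with 2 or 3 and 295 with 4 or more. These classes had median depths of 3535, 3035, 2747 and 3010 UMIs, so the neurons with most Otp were not the deepest. The median share of mitochondrial UMIs was between 4.01% and 4.37% in the 4 classes. To remove depth, all cells were also thinned to 2167 UMIs, the depth that 10% of kept cells did not reach.

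Calcr was found in 3.84% (3.21 to 4.56) of neurons with 0 Otp UMIs and in 9.09% (5.48 to 14.0) of those with 1. With 2 or 3 Otp UMIs the share was 23.0% (18.0 to 28.6), and with 4 or more it was 28.8% (23.7 to 34.3). The first and the last class did not overlap in their intervals, while the last pair did. After thinning, the Calcr shares were 2.79%, 5.82%, 17.1% and 23.0%, in the same order. The pooled level went from 14.6 CPM (12.6 to 16.8) at 0 Otp UMIs to 136 CPM (115 to 160) at 4 or more, a log2 ratio of 3.22 (2.90 to 3.54).

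Cbln4, the synaptic organizer, followed the same order. It was found in 5.19% (4.45 to 6.01), 12.6% (8.34 to 18.1), 27.6% (22.3 to 33.5) and 29.2% (24.0 to 34.7) of the neurons in the 4 classes. Thinned shares were 3.12%, 10.1%, 24.5% and 22.6%, so from 2 Otp UMIs on there was no further step beyond counting error. The pooled level was 16.9 CPM (14.8 to 19.3) at 0 and 134 CPM (113 to 158) at 4 or more, a log2 ratio of 2.99 (2.67 to 3.30).

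Sim1 did not follow this order. No UMI was found in 3256 neurons with 0 Otp UMIs, which allows a share of up to 0.0921%, nor in 198 neurons with 1. It was found in 8 of 257 neurons with 2 or 3 Otp UMIs (3.11%, 1.35 to 6.04) and in 2 of 295 with 4 or more (0.678%, 0.0822 to 2.43). The intervals of the last pair overlap.

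**Figure D2:**
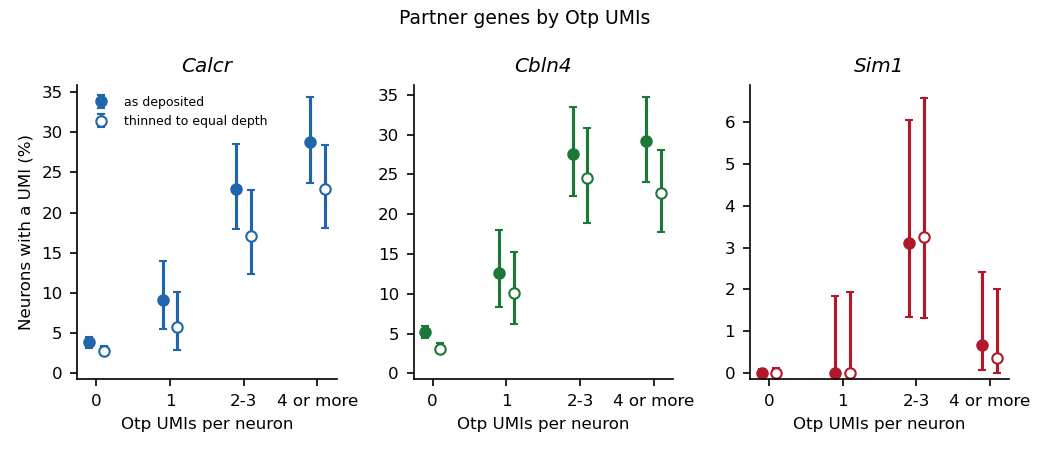
Share of neurons with at least 1 UMI (y axis, %) of Calcr, Cbln4 and Sim1 by the number of Otp UMIs in the neuron (x axis), as deposited (filled) and after thinning to equal depth (open); bars are exact 95% binomial intervals and each panel has its own scale. Calcr and Cbln4 go from under 6% to over 28% of neurons as deposited, and Sim1 is found only at 2 or more Otp UMIs.

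The same relation was read from the other side, where neurons of each gene held Otp more often than all neurons did. Of 287 Calcr neurons, 56.4% (50.5 to 62.3) held Otp, against 18.7% of all neurons, and 125 had none. Of 351 Cbln4 neurons, 51.9% (46.5 to 57.2) held Otp, and 169 had none. The Otp share went from 15.8% of neurons without Calcr to 52.6% with 1 Calcr UMI, 58.8% with 2 and 70.5% (54.8 to 83.2) with 3 or more. By Cbln4 UMIs it was 15.54%, 44.3%, 65.8% and 71.4% (53.7 to 85.4). All 10 Sim1 neurons held at least 2 Otp UMIs.

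Co-detection was set against the number expected if 2 genes were detected independently within 10 bins of depth. Otp and Calcr met in 162 neurons against 58.3 expected, a ratio of 2.78 (2.37 to 3.24). Otp and Cbln4 met in 182 against 70.6, a ratio of 2.58 (2.22 to 2.98). Otp and Sim1 met in 10 against 1.55, a ratio of 6.46 (3.10 to 11.9). For comparison, the ratio with Otp was 4.33 (3.29 to 5.59) for Agrp, 3.28 (2.73 to 3.90) for Npy and 3.31 (2.87 to 3.80) for Sst, the peptide genes of the Agrp lineage and of Sst neurons. It was 1.01 (0.862 to 1.18) for Pomc, the melanocortin precursor, and 0.233 (0.116 to 0.417) for Lhx1, a LIM homeobox factor of another arcuate population.

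Across all genes, 5100 had at least 20 UMIs and a UMI in at least 10% of the cells of the higher class, and 1.37% of them were more than 2-fold higher in CPM in neurons with 4 or more Otp UMIs than in those with 0. In the other direction, 2.73% were more than 2-fold lower. Calcr and Cbln4 were among the higher genes, and Sim1 did not reach the filter in this comparison. The largest log2 ratios after Otp itself, which defined the classes, were those of Npy (6.26, 6.02 to 6.50), Sst (6.25, 6.01 to 6.50) and Agrp (5.02, 4.47 to 5.60). Ap3b1, a subunit of an endosomal adaptor complex, came next at 3.26, followed by Calcr and Cbln4. Then came Pdzrn4 (2.77), Spon1 (2.72), which encodes an extracellular matrix protein of growing axons, Isl1 (2.61), a LIM homeodomain factor of arcuate neurons, and Ecel1 (2.59). The remaining leading genes were 2900055J20Rik (2.36), Cited1 (2.35), Slc32a1 (2.29), the vesicular transporter of GABA, and Begain (2.19).

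Among the lowest ratios, Car10 was at -3.47, Tcf7l2 at -3.23, Fezf1 at -3.14 and Robo3 at -3.10. Sox14 was at -3.06, Lhx9 at -3.04, Gng8 at -3.03, Nr4a2 at -2.999 and Pantr1 at -2.96. Fezf1 and Robo3 stand on the list of neighbouring regions, whose summed level was 615 CPM at 0 Otp UMIs and 343, 82.9 and 136 CPM in the classes above. Neurons of those regions therefore formed part of the class that Otp neurons were compared with, and their part in the ratios was not tested.

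Of 11 genes listed for Agrp neurons, 8 passed the filter and all 8 were more than 2-fold higher with 4 or more Otp UMIs, with a median log2 ratio of 2.48 against 0.00 over all genes tested. The filter counts a gene through its higher class, and the study chose Cited1 and Peg10 on these cells, so the count is a description. The members with smaller ratios were Peg10 (1.97), an imprinted gene, Sox21 (1.54) and Tbx3 (1.34), a T-box factor of the tuberal hypothalamus. The receptors Ghsr, Lepr and Insr did not pass.

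All 4 transmitter genes passed. The GABA genes Slc32a1 (2.29), Gad2 (1.82) and Gad1 (1.73) were higher with Otp, and Slc17a6, which encodes the vesicular glutamate transporter, was lower (-2.67). Of 14 genes of other arcuate fates, 3 passed and all 3 were more than 2-fold lower, beside 2.73% of all genes tested. These were Sox14 (-3.06), Nhlh2 (-2.91) and Pomc (-1.19). The filter counts a gene through its higher class, here the neurons with 0 Otp UMIs, so this count is also a description. A Pomc UMI was found in 25.1% of neurons with 4 or more Otp UMIs and 23.6% of those with none, shares for which no background of free RNA was read. Gsx1, a homeodomain factor of the same list, did not pass the filter on detection, with a UMI in 5.76% against 1.69% and a log2 ratio of 1.68 (0.84 to 2.44). Over all neurons Otp met Gsx1 1.74 times (1.21 to 2.41) and Th 1.51 times (1.12 to 1.97) the number given by independent detection. Of the field factors Six6 was at 0.94, Six3 at 0.84 and Nkx2-1 at -0.47, none past 2-fold.

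The receptors and relatives of the 3 partner genes did not move as one group. Of 10 cerebellins and their receptors, 6 passed. Nrxn3, a neurexin that cerebellins bind, was higher (1.02, 0.78 to 1.25), whereas Cbln1 (-1.91, -2.47 to -1.41) and Cbln2 (-2.19, -2.50 to -1.89) were lower. Nrxn2 and Neo1 stayed within 2-fold, at -0.13 and 0.47. In neurons with 2 or 3 Otp UMIs the ratio of Cbln2 was -3.39 (-3.93 to -2.89), and that of Cbln4 in the same cells was 3.09.

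None of the 8 genes of the calcitonin receptor family passed the filter. Ramp1, Ramp2 and Ramp3, which change the ligand that Calcr prefers, were found in 18, 64 and 41 neurons. Otp met Ramp1 in 5 of them, Ramp2 in 12 and Ramp3 in 6, with ratios of 1.74 (0.564 to 4.05), 1.19 (0.615 to 2.08) and 0.790 (0.290 to 1.72), all with intervals that include 1. Iapp, which encodes amylin, and Calcb had 0 UMIs in neurons.

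Of 7 genes of the Otp and Sim1 neuroendocrine program, only Arnt2 (-0.22) and Pou3f2 (-1.12, -1.88 to -0.44) passed. The dimer partner of Sim1 was thus near even across Otp classes, and Pou3f2 was lower in the class richest in Otp. Markers of progenitors and of neurons, summed over their lists, differed between the Otp classes. Progenitor markers were at 448, 531, 254 and 321 CPM at 0, 1, 2 or 3, and 4 or more Otp UMIs, and Sox2 was at -1.08 (-1.46 to -0.71) and Vim at -0.60 (-0.87 to -0.34) on the log2 scale in the highest class against 0. Neuron markers were at 6384, 5640, 5135 and 5031 CPM, but single genes of that list went both ways in the highest class against 0. Stmn2, the gate itself, was at -0.53 (-0.60 to -0.47), Tubb3 at -0.46 and Elavl4 at -0.23. Snap25 was at 0.44 (0.22 to 0.64) and Map2 at 0.41 (0.27 to 0.54), while the interval of Dcx (-0.02, -0.15 to 0.12) included no difference. The part of progenitor and neuron markers in the results was not tested. Summed over the lists, vascular and connective markers were at 35.4 to 56.1 CPM in the 4 classes, with Cdh5 at 0 in the highest class. Macrophage markers were at 2.85 to 11.1 CPM, with Aif1, C1qa and C1qc at 0 in the highest class. Pituitary markers were at 83.3 CPM at 0 Otp UMIs and at 29.8, 53.7 and 126 CPM in the classes above. Globin genes were at 256 to 326 CPM.

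Calcr and Cbln4 were detected apart more often than together. Most detections were of a single UMI, in 192 of 287 Calcr neurons and 237 of 351 Cbln4 neurons. A neuron counted here with 1 gene alone may therefore still have expressed the other. Of the 295 neurons with 4 or more Otp UMIs, 15.3% held Calcr alone, 15.6% Cbln4 alone and 13.6% (9.87 to 18.0) both, and 55.6% held neither. At 0 Otp UMIs only 10 of 3256 neurons held both (0.307%). Over all neurons the pair met in 76 neurons, 2.90 times (2.29 to 3.63) the expected number. Among neurons with 2 or more Otp UMIs they met in 62 against 42.5 expected, a ratio of 1.46 (1.12 to 1.87), and among those with 0 in 10, a ratio of 1.60 (0.770 to 2.95). Among neurons with 2 or more Otp UMIs the pair was therefore closer to independent than over all neurons.

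The neurons with Otp were next split by their peptide genes. There were 120 with at least 2 Npy or 1 Agrp UMI, 142 with at least 2 Sst UMIs and not in the first class, and 444 with no UMI of the 3 genes, while 44 fell in between. Their median depths were 3336.5, 2694 and 2883.5 UMIs. Npy and Agrp encode the peptides through which Agrp neurons raise feeding, and Sst encodes somatostatin.

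Calcr stood apart in the first of these classes. It was found in 62 of 120 Npy or Agrp neurons (51.7%, 42.4 to 60.9), in 23 of 142 Sst neurons (16.2%, 10.6 to 23.3) and in 69 of 444 neurons with none (15.54%, 12.3 to 19.3). The interval of the first class lay above both others, which overlapped. Thinned shares were 37.9%, 14.2% and 10.4%. In pooled level the log2 ratio to the neurons with none was 1.81 (1.41 to 2.21) for Npy or Agrp neurons, in a comparison where 2.03% of 4387 genes were more than 2-fold higher and 2.53% lower. For Sst neurons it was 0.45 (-0.10 to 0.99), an interval that includes no difference, and there 0.614% of 4237 genes were more than 2-fold higher and 2.62% lower. With Tubb3 in place of Stmn2 as the neuron gate it was -0.013 (-0.65 to 0.58). It was 1.31 (0.578 to 2.003) with Stmn2 at 5 or more and 1.03 (0.19 to 1.85) when an Nkx2-1 UMI was required, so the value depended on the gate.

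The neurons with none of the peptides also had higher pooled levels of several genes of other cells and fates than the Npy or Agrp neurons. Sox2, a progenitor marker, had a log2 ratio of -1.61 (-2.49 to -0.85) in Npy or Agrp neurons to those with none, and Nhlh2 one of -2.78 (-3.80 to -1.92). Dlx2, a homeobox factor of GABA neurons, was found in 0 of 120 against 47 of 444 neurons. None of the 10 markers of neighbouring regions passed the filter, but Pou4f1 was found in 2.50% against 9.23% (log2 ratio -1.62, -2.35 to -0.97), with Kitl at -3.62 and Robo3 at -2.04. In Sst neurons the ratios to the same class were -3.16 for Nhlh2, -2.35 for Pou4f1 and -3.54 for Kitl, while the interval of Sox2 (-0.35, -0.94 to 0.19) included no difference. Their part in the Calcr and Cbln4 values was not tested.

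Cbln4 had an interval in Npy or Agrp neurons above that in neurons with none, while its interval in Sst neurons overlapped both. It was found in 46 of 120 Npy or Agrp neurons (38.3%, 29.6 to 47.6), 37 of 142 Sst neurons (26.1%, 19.1 to 34.1) and 91 of 444 with none (20.5%, 16.8 to 24.6). The log2 ratios to the neurons with none were 0.86 (0.45 to 1.27) for Npy or Agrp and 0.68 (0.23 to 1.11) for Sst. The first was just past 2-fold with at most 5% mitochondrial UMIs (1.06), with Stmn2 at 5 or more (1.14) and with Tubb3 at 2 or more (1.02), and -0.27 (-1.79 to 0.97) when an Nkx2-1 UMI was required. The second was 1.13 (0.50 to 1.73) with Stmn2 at 5 or more. Its interval included no difference with peptide classes at 1 UMI (0.31, -0.16 to 0.77), with at least 2 Otp UMIs (0.44, -0.03 to 0.89) and with an Nkx2-1 UMI (0.69, -0.08 to 1.43). The neurons with none also held less Otp, at 828 CPM against 1258 and 1452. Restricted to neurons with at least 2 Otp UMIs, a split added after the data were seen, the Calcr shares were 49.1%, 18.1% and 20.9% and the Cbln4 shares 39.3%, 28.3% and 25.6%. All 10 Sim1 neurons were in the class with none (2.25%, 1.09 to 4.10), and 0 of 120 and 0 of 142 neurons in the others held it, which allows shares of up to 2.50% and 2.11%.

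**Figure D3:**
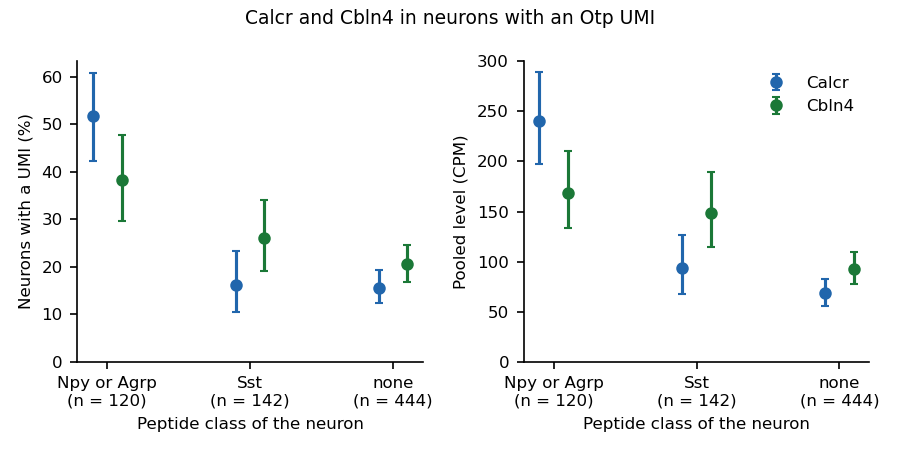
Calcr (blue) and Cbln4 (green) in neurons with an Otp UMI, split by peptide gene (x axis, with the number of neurons), as the share with at least 1 UMI (left, %) and the pooled level (right, CPM); bars are exact 95% intervals. Calcr stands at 51.7% in Npy or Agrp neurons and near 16% in both other classes. Cbln4 stands at 38.3%, 26.1% and 20.5%, and its Sst interval overlaps both others, which do not overlap each other.

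The partners were also graded by single peptide genes over all neurons. With 0, 1, 2 or 3, and 4 or more Agrp UMIs, Calcr was found in 6.46%, 29.4%, 66.7% and 38.9% of neurons. Cbln4 was found in 8.47%, 26.5%, 33.3% and 5.56%, the last being 1 of 18 neurons (0.141 to 27.3). The intervals of the last pair of classes overlapped for both genes, at 24 and 18 neurons, and in the last class those of Calcr (7 of 18, 17.3 to 64.3) and Cbln4 overlapped too. Otp was in 17.6%, 55.9%, 95.8% and 88.9% of the same neurons.

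By Npy UMIs, Calcr was found in 5.85%, 14.3%, 43.8% and 49.3% and Cbln4 in 7.74%, 13.3%, 40.6% and 41.1%, so both were at their highest from 2 Npy UMIs on. Otp went from 16.4% and 32.4% to 81.2% and 93.2%. By Sst UMIs, Calcr was found in 6.45%, 9.64%, 23.1% and 19.9% and Cbln4 in 7.73%, 10.8%, 28.2% and 28.8%, beside Otp in 14.7%, 38.6%, 89.7% and 92.5%. The share with Otp was lower at 1 UMI of Npy, Agrp or Sst than at 2 or 3. The part of free RNA in single UMIs of these genes was not tested, and Agrp entered its peptide class at 1 UMI.

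Among neurons with 2 or more Otp UMIs, Calcr met Agrp 1.83 times (1.22 to 2.63) and Npy 1.63 times (1.23 to 2.12) the number given by independent detection, and Sst 0.874 times (0.624 to 1.19). Cbln4 met Npy 1.43 times (1.07 to 1.88), Agrp 0.931 times (0.509 to 1.56) and Sst 1.08 times (0.817 to 1.41). Agrp and Sst met in 3 neurons against 15.8 expected. Calcr and Cbln4 met each other in 17 Sst neurons against 8.12 expected, a ratio of 2.09 (1.22 to 3.35), and in 23 Npy or Agrp neurons against 22.5, a ratio of 1.02 (0.647 to 1.53), where these intervals overlap.

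Otp neurons with Calcr alone and with Cbln4 alone, 96 and 116 cells, were also set side by side, and the genes named here were chosen after their values were seen. On the Calcr side the log2 ratio was 2.71 for Agrp, 2.07 for Pcbd1 and 2.04 for Rgs4. On the Cbln4 side it was -4.17 for Hs3st5, which encodes a heparan sulfate sulfotransferase, -2.63 for Tle1, a transcriptional corepressor, -1.81 for Bcl11b, a zinc finger factor, and -1.74 for Gad2. In this comparison 2.4% of 3415 genes were more than 2-fold higher and 2.31% lower.

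The higher shares of both partners with Otp were also present in neurons without these peptides, a split added after the data were seen. In neurons with no Npy, Agrp or Sst UMI, Calcr was found in 3.75%, 6.59%, 16.1% and 26.6% of the 4 Otp classes and Cbln4 in 5.14%, 12.0%, 23.5% and 28.1%, with log2 ratios of the highest class to 0 of 3.02 and 2.89. The split by Isl1, added in the same way, gave Calcr shares of 6.39% and 28.1% at 0 and at 4 or more Otp UMIs in neurons with Isl1. In those without Isl1 they were 3.10% and 32.1%. The shares of Cbln4 were 7.34% and 29.3% with Isl1 and 4.56% and 28.3% without it. At 4 or more Otp UMIs, the intervals with and without Isl1 overlapped for both genes. The third such split kept the neurons with a UMI of Slc32a1, Gad1 or Gad2, the genes of GABA neurons. There, Calcr was found in 33 of 388 neurons at 0 Otp UMIs (8.51%, 5.93 to 11.7) and in 33 of 123 at 4 or more (26.8%, 19.2 to 35.6), with pooled levels of 42.4 and 108 CPM. The log2 ratio was 1.34 (0.77 to 1.91), below the interval over all neurons. Cbln4 was found in 6.70% and 29.3% of the same neurons, with a log2 ratio of 2.46 (1.79 to 3.15).

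The 10 Sim1 neurons were described cell by cell, since they are few. Their Otp counts were 2 in 6 cells, and 3, 3, 4 and 5 in the others. Pou3f2, a POU factor of neuroendocrine neurons, was found in 9 of the 10, with 1 to 6 UMIs. Avp was found in 7, at 419, 197, 105, 29, 16, 2 and 2 UMIs, and Oxt in 3, at 1 UMI each. Calcr was found in 3, at 1 UMI each, and Arnt2 in 4. None of the 10 held Cbln4, Npy, Agrp, Sst, Isl1, Crh, Trh, Slc17a6, Slc32a1, Gad1 or Gad2.

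**Figure D4:**
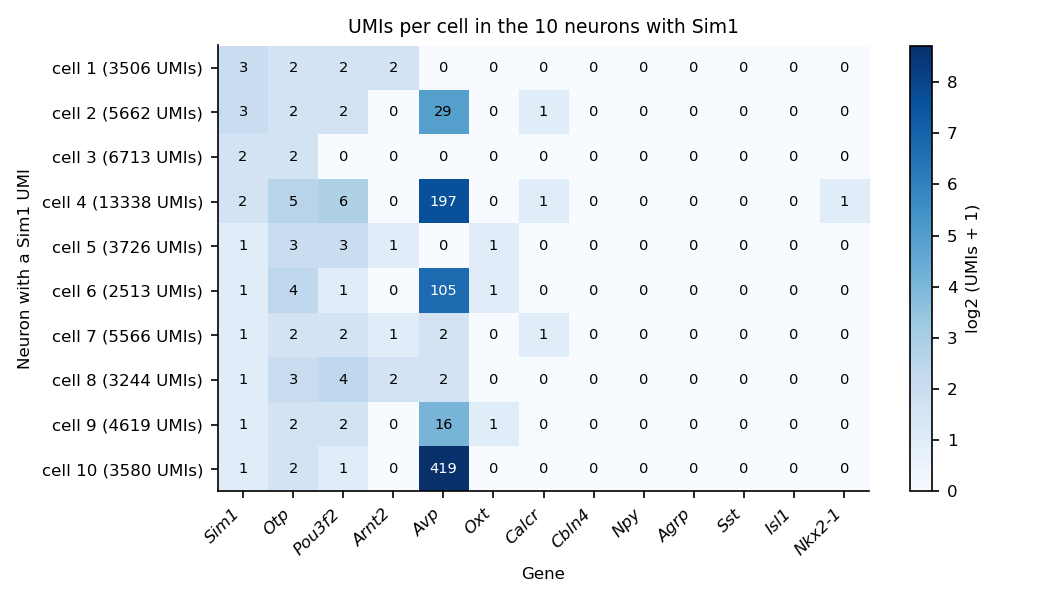
UMIs (numbers; colour as log2 of UMIs plus 1) of 13 genes (x axis) in each of the 10 neurons with a Sim1 UMI (y axis, with the UMIs of the cell in all). Otp is present in every cell and Pou3f2 in 9, Avp reaches 419 UMIs, and the columns of Cbln4, Npy, Agrp, Sst and Isl1 are 0.

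The other 542 neurons with at least 2 Otp UMIs held Isl1 in 81.2%, Cbln4 in 29.0% and Calcr in 26.0%, and Pou3f2 and Avp in 12 neurons each (2.21%). Sim1 and Pou3f2 met 7.50 times (3.43 to 14.2) and Sim1 and Avp 8.37 times (3.37 to 17.2) the number given by independent detection among neurons with 2 or more Otp UMIs. Sim1 and Calcr met in 3 neurons against 3.07 expected. Sim1 and Cbln4 met in 0 against 2.76, with an exact upper limit of 1.33 on the ratio, so a ratio near 1 was not excluded.

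Set against Otp neurons with Npy or Agrp, where 0.929% of 2477 genes were more than 2-fold higher and 34% lower in the 10 Sim1 neurons, the leading genes were Avp and Pou3f2 (438 against 2.16 CPM). Gal, which encodes the peptide galanin, was at 515 against 4.32 CPM, Gm17750 at 705 against 6.49 and Calb1, a calcium-binding protein, at 553 against 6.49. Levels pooled over 10 cells can rest on few of them, so these values do not show a trait shared by the 10. Ptbp3, Rbms1, Elavl2, Ptn and Canx followed, with log2 ratios of 3.44, 3.14, 2.96, 1.80 and 1.35. The lower side holds many genes that 10 cells were too few to sample, so it was not read further. Otp itself was lower in the Sim1 neurons, at 515 CPM against 1258, a log2 ratio of -1.29 (-1.90 to -0.73).

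High Avp was also found in Otp neurons with no Sim1 UMI, which does not show that Sim1 was absent, since Sim1 did not exceed 3 UMIs in any neuron. All 11 neurons with at least 10 Avp UMIs (15 to 430) held Otp, with 1 to 9 UMIs. Of these, 5 held Sim1, 9 held Pou3f2, 4 held Calcr and none held Cbln4 or Isl1. In the class with 4 or more Otp UMIs, 4 such cells carried 750 of 755 Avp UMIs (99.3%), so the pooled Avp ratio of that class (7.47 on the log2 scale) rested on them.

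Calcr and Cbln4 were also detected in neurons with 0 Otp UMIs. The Calcr share there (3.84%, 3.21 to 4.56) overlapped the interval of its background in vascular and connective cells (1.49%, 0.309 to 4.30). The intervals of the pooled level did not overlap, with Calcr at 14.6 CPM (12.6 to 16.8) in these neurons and at 3.27 CPM (0.674 to 9.55) in the vascular and connective cells. Among neurons with 0 Otp UMIs, Calcr met Ghrh, the growth hormone-releasing peptide, in 15 neurons, a ratio of 4.54 (2.54 to 7.49). It met Th, the rate-limiting enzyme of dopamine synthesis, in 20, a ratio of 4.44 (2.71 to 6.86), and Dlx1, a homeobox factor of GABA neurons, in 27, a ratio of 2.30 (1.52 to 3.35). Cbln4 met Ghrh in 0 neurons against 3.94 expected, Th in 5 (1.05, 0.340 to 2.44) and Dlx1 in 10 (0.776, 0.372 to 1.43). The intervals of the Ghrh ratios and of the Th ratios did not overlap between the partners.

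Over all genes, 0.737% of 4611 were more than 2-fold higher and 2.69% lower in the 125 Calcr neurons without Otp than in the 3131 neurons with neither, and Ghrh led the higher side with 399 against 32.3 CPM. The next genes, also chosen after their values were seen, were Th (log2 ratio 2.67), Tbx3os1 (2.08) and Asb4 (1.94). On the lower side were all 5 markers of neighbouring regions that passed the filter, of 10 in the list (Fezf1, Kitl, Nr5a1, Pou4f1 and Robo3), with a median log2 ratio of -1.32 beside -0.019 over all genes tested, and their part in the result was not tested. For the 169 Cbln4 neurons without Otp, which were deeper (median 4542 UMIs against 3514), 0.74% of 5540 genes were more than 2-fold higher and 0.776% lower. Hs3st5 led that higher side as well (2.09), ahead of Prkcd (1.95), a protein kinase C. Of the same 5 markers, 2 were more than 2-fold lower there, with a median of -0.96.

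In neurons with at least 2 Ghrh UMIs, Calcr was found in 13 of 49 (26.5%, 14.9 to 41.1) and Cbln4 in 0 of 49, which allows a share of up to 6.12%. In the same neurons Otp was found in 5 (10.2%). The Calcr interval of these 49 neurons spans the share in neurons with 4 or more Otp UMIs. In neurons with 2 or more UMIs of Nhlh2, a bHLH factor of Pomc and Kisspeptin lineages, Otp was found in 5.06%, Calcr in 2.58% and Cbln4 in 2.39% of 1087. In neurons with 2 or more Pomc UMIs, with a median depth of 4322 UMIs, the shares were 14.0%, 9.24% and 6.72% of 357.

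Pearson correlations of log-normalized values across 4006 neurons are given as a description, because all neurons share 1 library and differ in depth. They ranked the genes most like each member, among 9764 genes or, for Sim1, 9765. For Otp these were Isl1 (r = 0.512), Sst (0.472), Dlk1 (0.450), Tbca (0.366), Npy (0.328), Peg10 (0.324), Cbln4 (0.320) and Calcr (0.293). For Calcr they were Peg10 (0.305), Otp (0.293), Cited1 (0.291), Npy (0.270), Nap1l5, Cbln4 (0.195), Dlk1 and Bex2. For Cbln4 they were Otp (0.320), Isl1 (0.198), Npy (0.198), Calcr (0.195), Sst (0.171), Peg10, Meg3 and Dlk1. The Otp list thus held both partners, and each partner's list held Otp. For Sim1, on 10 neurons, they were Gal (0.260), Ebf3, Gm17750, Pou3f2 (0.164), Plpp4, Ptbp3, Fam46a and Kcnip4, with r from 0.137 to 0.260.

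Tbca and Ap3b1, named above for their likeness or ratio, are the genes of the table that precede Otp within 500 kb on chromosome 13, on the same strand. Tbca, which encodes a tubulin-folding cofactor, ends 32680 bases before the start of Otp, and Ap3b1 309285 bases before. In neurons with 2 or more Otp UMIs Tbca was at 1325 CPM against 488 at 0, a log2 ratio of 1.44 (1.37 to 1.51), and Ap3b1 at 102 against 13.7 CPM, a log2 ratio of 2.89 (2.59 to 3.20). Cells with under 2 Stmn2 UMIs gave 1.72 (1.59 to 1.85) for Tbca and 1.79 (1.27 to 2.27) for Ap3b1. On the far side of Otp, Wdr41 (-0.18), Pde8b (0.27), Zbed3 (0.01) and Aggf1 (-0.20) had intervals that include 0 in neurons. These 4 genes were chosen for their position only.

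**Figure D5:**
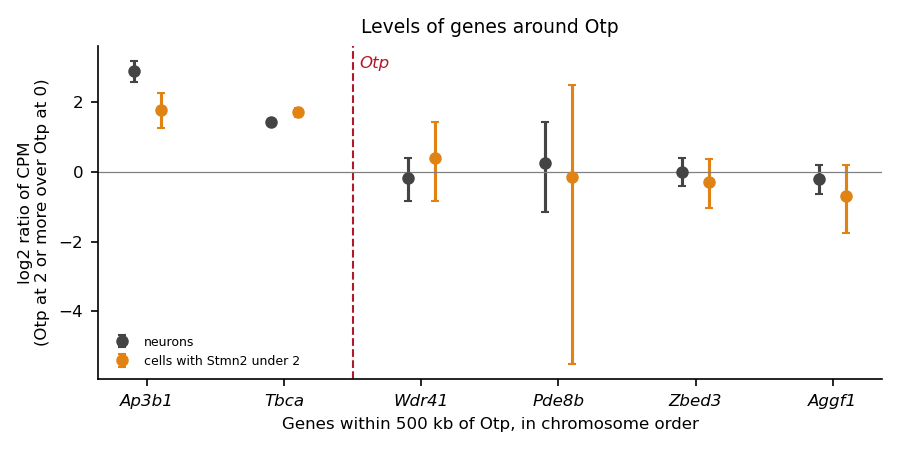
log2 ratio of pooled CPM in cells with 2 or more Otp UMIs over cells with 0 (y axis) for the table's genes with UMIs within 500 kb of Otp, in chromosome order (x axis, not to scale; the dashed line marks Otp), in neurons and in cells with Stmn2 under 2. Bars are exact 95% intervals; Ap3b1 and Tbca lie above 0 in both sets of cells, and the intervals of the 4 genes on the other side include 0.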

How the data were processed

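Droplet 3′ single-cell RNA-seq (10x Genomics) measured 1 library of 6 pooled embryos, sequenced in 4 runs. The deposited values are raw counts (UMIs per gene and cell), which the authors made with Cell Ranger 2.1.1 and STAR 2.4.0 on mm10 and analysed in Seurat 2.0. The labels do not map cells to runs or embryos, so all cells were treated as 1 sample.

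Here (Python 3.11.15, numpy 2.4.6, scipy 1.17.1), cells with 200 to 4500 genes, at most 10% mitochondrial UMIs and at most 10 Hba-a1 UMIs were kept. Doublets were treated by the limit on genes, with no caller. Gates were neurons, Stmn2 at 2 or more, and, below that, vascular and connective (5 or more marker UMIs), pituitary (3 or more), cycling, progenitors and intermediate precursors. Levels are pooled CPM, and ratios carry conditional exact binomial intervals. Thinning drew 2167 UMIs per cell with seed 7, leaving out shallower cells. Genes named were the 4 members, 17 lists with 119 genes, the 15 highest and 10 lowest ratios between Otp classes, the 8 genes most like each member (UMI in at least 2% of neurons) and the 10 leading genes of Sim1 against Npy or Agrp neurons. Members and lists were chosen with earlier results of these data known. Functions were tested on simulated data. Alternative filters, gates and thresholds are reported in the closing section. A few genes that these rules name are not reported here.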

Additional observations from a re-analysis of the deposited data

How the results depend on the processing

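Of 123 alternative values for 12 results, 98 stayed within the interval of the reported value (counts within 1.5 times), 23 moved beyond it and 2 changed sign. With at least 1 Nkx2-1 UMI required, the log2 ratio of Cbln4 in Npy or Agrp neurons to those with none was -0.27, and with Tubb3 at 2 or more as the neuron gate that of Calcr in Sst neurons was -0.013. The cause was not tested. The log2 ratio between neurons with 4 or more and 0 Otp UMIs was, for Calcr, 2.60 with Isl1 and 3.63 without it, and for Cbln4 2.54 and 3.32. With a UMI of Slc32a1, Gad1 or Gad2 they were 1.34 and 2.46. The share of Sim1 among neurons with 2 or more Otp UMIs, 1.81%, was 0 with Isl1 and with a UMI of these GABA genes, 8.93% without it, 3.61% with no peptide UMI and 0.676% with Nkx2-1. The ratio of Otp with Calcr was 3.36 with Stmn2 at 5 or more, 3.35 with Otp at 2 or more and 3.66 with both genes at 2 or more, and that of Otp with Cbln4 was 3.04 and 3.97 under the last pair of settings. The log2 ratio of Calcr in Npy or Agrp neurons to those with none was 1.25 with Otp at 2 or more. In Sst neurons it was 1.31 with Stmn2 at 5 or more and 1.03 with Nkx2-1, and that of Cbln4 was 1.13 with Stmn2 at 5 or more. Genes more than 2-fold higher between the Otp classes numbered 70, and 1306 with no filter. Those lower numbered 139, 5188 with no filter and 231 with Nkx2-1. The splits by Isl1, by GABA genes, by peptide and by 2 Otp UMIs were added after the data were seen. No paired analysis was possible because there is 1 group and 1 library. Leaving out a run could not be done, since the counts do not say which run a UMI came from. Results on Sim1 rest on 18 UMIs, and after thinning 8 neurons with 2 or more Otp UMIs kept it (1.63%).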

Other observations

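Beside the 552 neurons with at least 2 Otp UMIs stood 155 cells with as much Otp but under 2 Stmn2 UMIs, at a median depth of 2469 UMIs. Of these, 82 had 1 Stmn2 UMI, 89.0% held the neuronal tubulin Tubb3 and 81.3% held Isl1, against 98.0% and 79.7% of the 552. Calcr was found in 14.2% (9.11 to 20.7) of the 155 and in 26.1% (22.5 to 30.0) of the 552, and Cbln4 in 10.3% (6.02 to 16.2) and 28.4% (24.7 to 32.4), so both partners had lower shares in the cells with little Stmn2. Thinned to equal depth, Calcr was at 13.4% against 20.4% and Cbln4 at 7.56% against 23.5%, and the intervals of Calcr then overlapped. Npy was in 6.45% against 21.4%, Agrp in 3.23% against 9.78%, and Sst in 27.1% (20.3 to 34.8) against 32.4% (28.5 to 36.5). Sim1 was found in 0 of the 155, which allows a share of up to 1.94%.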
